A study of Mus musculus with 106 samples.

Results

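The genes described here are 7 enzymes of cholesterol synthesis in mouse liver, Hmgcs1, Idi1, Fdps, Fdft1, Sqle, Lss and Cyp51, out of 21887 protein-coding genes that were scored in the same way. They were chosen by name. No gene of LDL uptake is among the 7, so the values below concern synthesis only. For each gene, ChIP-seq peaks were taken whose centre lay in the gene body or within 10 kb of either end, and the percent of the gene body inside regions of gained accessibility was taken from ATAC-seq. All 7 genes were found in the mm10 annotation.

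The study comprised 106 samples in 45 groups from livers of Foxa2 mutant (Foxa2-KO) and wild-type (WT) mice given a receptor ligand or vehicle. The 27 peak lists used were 5 of Foxa2 (WT animals only), 4 of FXR, 6 of LXR alpha and 8 of PPAR alpha ChIP-seq, each called against input, and 4 of ATAC-seq, each called as ligand over vehicle. The 37 RNA-seq samples were not analysed here, so no transcript level stands beside the peaks. In the mutant, floxed Foxa2 alleles (Foxa2loxP/loxP) were deleted with Alfp.Cre, a transgene whose promoter is active in liver epithelial cells, so the deletion is limited to those cells.

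The ligand groups were GW3965 and T09 (T0901317), which are LXR agonists, and GW4064, an FXR agonist. The LXR samples name an agonist only as GW, with no number. Foxa2 ChIP was done on WT liver after GW3965, T09 and GW4064, with one vehicle group called Veh and another called GW4064-Veh. FXR ChIP was done on Foxa2-KO and WT liver after GW4064 or its vehicle. LXR ChIP was done on both genotypes after GW, T09 or vehicle, and PPAR ChIP on both genotypes after GW3965, T09, GW4064 or vehicle. The ATAC lists covered GW4064 in Foxa2-KO liver, and GW3965, T09 and GW4064 in WT liver. Livers for ATAC, Foxa2 and FXR were taken 4 h after the ligand, at an age of 8 to 12 weeks, and the LXR and PPAR mice were 3 months old. The labels give 1 sample to each Foxa2 and each WT LXR group, 3 to each Foxa2-KO LXR group, 2 to each FXR and PPAR group and 2 or 3 to each ATAC arm. The Foxa2 labels speak of 3 replicates in 1 raw file for Veh, GW3965 and T09. Sample labels give oral gavage as the route and the series text injection. Each group or comparison was deposited as 1 list, and whether lists share an input sample is not given in the sources used here. No value per replicate was therefore at hand, no test over animals could be made, and every difference below is a description with no replicate error. Peak lists also carry no read depth. None of them measures the deletion of Foxa2.

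Cholesterol is built from acetyl-CoA through mevalonate, isoprenoid diphosphates and squalene, and the liver is a main site of this synthesis. When sterols in the endoplasmic reticulum run low, SCAP escorts SREBP-2, the product of Srebf2, to the Golgi, where it is cleaved and released to switch on the genes of the pathway together. INSIG proteins hold SCAP back when sterols are plentiful. LXR is activated by oxysterols made from cholesterol and FXR by bile acids, the products of cholesterol breakdown. PPAR alpha answers to fatty acids, and Foxa2 is a forkhead factor that can bind closed chromatin.

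RefSeq promoter sequences (GRCm38.p6, the build also called mm10), from 250 bases before to 50 after the transcription start, matched 4 of the 7 genes: Hmgcs1, Idi1, Lss and Cyp51. A pair of these is shown, Hmgcs1 because its window held the core of a sterol regulatory element, the site that SREBP-2 binds, and Cyp51 because its window lay inside a region that gained accessibility with GW3965. Hmgcs1 is at chr13:119690101-119690400 on the plus strand and Cyp51 at chr5:4104648-4104947 on the minus strand. Capitals mark every match, on either strand, to a searched motif. These were TCACCCCA, which is the sterol core, and AGGTCA, which is the half-site of the nuclear receptors. Also searched were CCAAT, the box that factor NF-Y binds, and the forkhead site spelled either as TGTTTAC or, with another base in the last position but one, as TGTTTGC. A match on the reverse strand appears as its reverse complement. None of the matches shown overlaps another.
Hmgcs1: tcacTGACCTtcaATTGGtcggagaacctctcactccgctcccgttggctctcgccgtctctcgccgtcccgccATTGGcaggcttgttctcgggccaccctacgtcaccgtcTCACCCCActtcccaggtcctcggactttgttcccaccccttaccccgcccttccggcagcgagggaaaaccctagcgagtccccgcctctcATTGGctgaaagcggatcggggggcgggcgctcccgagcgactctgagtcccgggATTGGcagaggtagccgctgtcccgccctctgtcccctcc
Cyp51: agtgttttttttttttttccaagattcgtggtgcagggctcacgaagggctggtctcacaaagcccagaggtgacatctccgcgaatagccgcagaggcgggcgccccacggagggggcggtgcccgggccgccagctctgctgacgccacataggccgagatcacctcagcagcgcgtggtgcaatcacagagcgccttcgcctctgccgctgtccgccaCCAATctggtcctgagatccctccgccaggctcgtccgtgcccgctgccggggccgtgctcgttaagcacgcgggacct

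In the Hmgcs1 window, TCACCCCA lay 137 to 130 bases before the start, AGGTCA 246 to 241 bases before it on the reverse strand, and CCAAT in 4 places. The Cyp51 window held 1 CCAAT, 29 to 25 bases before the start. CCAAT was in 4 of 4 member windows and at 14 of 16 other cholesterol pathway genes, against 37.4% of all 32817 promoters. The 16 are counted as genes, and such a gene could have more than 1 window searched. The shares of all promoters count single windows, so the counts of 16 are not on the same footing. TCACCCCA was in 1 of 4 and 1 of 16 (Srebf2), against 1.56% of all promoters, and AGGTCA in 1 of 4 and 2 of 16, against 16.3%. TGTTTAC was in 0 of 4 and 0 of 16, against 3.65%, and TGTTTGC in 0 of 4 and 1 of 16 (Ggps1), against 5.06%. Paired half-sites in the spacing of an LXR element (a direct repeat with 4 bases between), an FXR element (an inverted repeat with 1 base between) or a PPAR element (a direct repeat with 1 base between) were in none of the 4 member windows and at none of the 16 genes. Exact copies of these were in 0.0152%, 0.00914% and 0.0396% of all promoters. These matches describe the letters of the windows only.

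Foxa2 was the factor with peaks at most of these genes. After GW3965, 5 of 7 genes had a Foxa2 peak (Hmgcs1, Fdps, Fdft1, Sqle and Cyp51), against 36.9% of all protein-coding genes. After T09, 5 of 7 had one (Hmgcs1, Idi1, Fdps, Fdft1 and Cyp51), against 39.2% of all genes. In the vehicle list that goes with both, 2 of 7 had one (Fdps and Fdft1), against 12.1%. After GW4064, 5 of 7 had one (the same 5 as after GW3965), against 38.8%, and in the GW4064-Veh list 2 of 7 had one (Fdps and Fdft1), against 17.8%. Over the 3 ligand lists together 6 of 7 genes had a peak (54.6% of all genes), and over both vehicle lists 2 of 7 (19.8% of all genes). Lss alone had none.

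The ligand lists were several times longer than the vehicle lists, and the share of all genes with a peak was larger in them too. The GW3965 list held 21245 entries and the T09 list 25318, against 4348 in Veh, and the GW4064 list held 22666, against 7306 in GW4064-Veh. Cut to the first 4348 entries, a setting chosen after the data were seen, the GW3965 list had a peak at 3 of 7 genes (Fdps, Fdft1 and Sqle, 12.0% of all genes) and the T09 list at 2 of 7 (Fdps and Fdft1, 11.8%). Cut to 7306 entries, the GW4064 list had one at 3 of 7 (Fdps, Fdft1 and Sqle, 18.3%). At equal length, then, the GW3965 and GW4064 lists had Sqle beyond the pair found with vehicle, and the T09 list had no further gene. Foxa2 lists carry no score, and what their order of entries stands for was not recorded. Whether ligand and vehicle lists differ in depth or in a threshold was not tested. In bulk liver, binding in fewer cells and weaker binding per cell cannot be told apart.

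**Figure D1:**
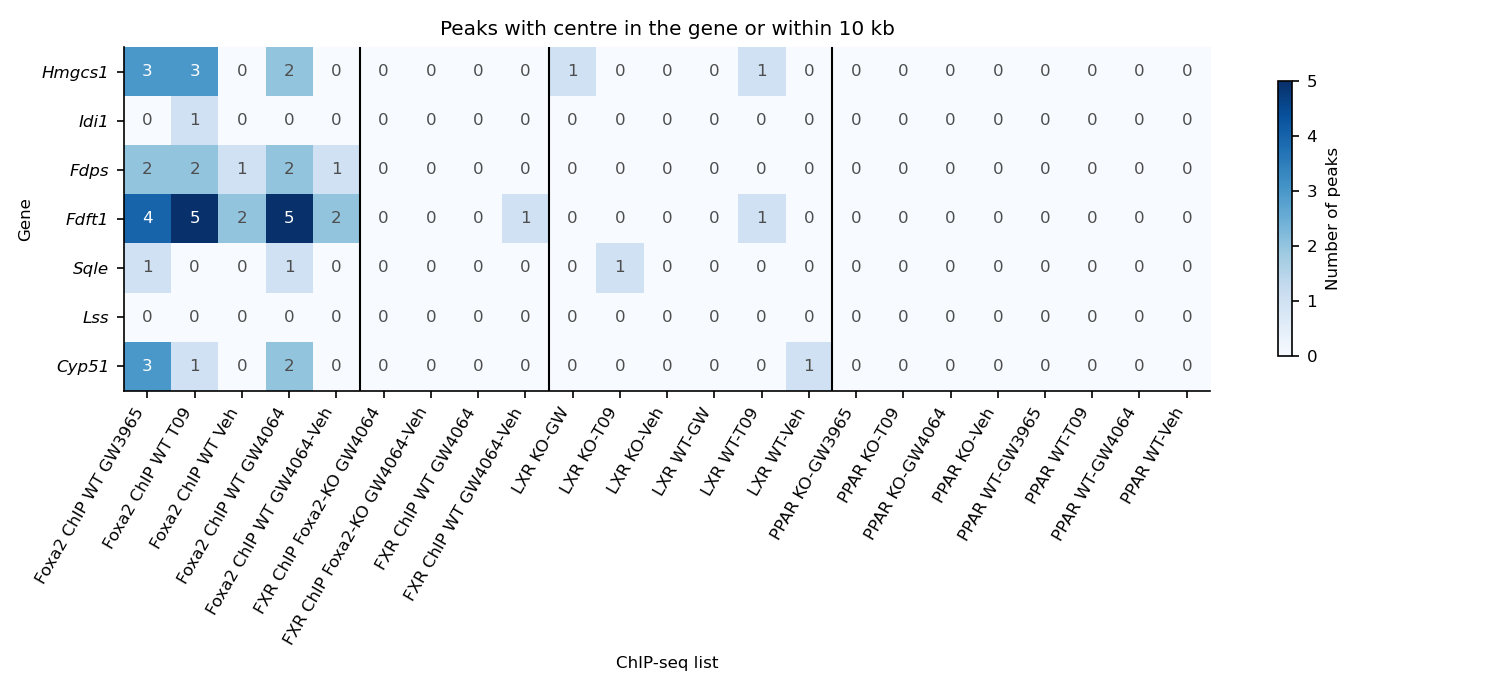
Number of ChIP-seq peaks with centre in the gene or within 10 kb (cell values and colour) for the 7 genes (rows, in the order of the pathway) in each of the 23 ChIP lists (columns, 1 deposited list per group, no replicates). Fdft1 reached 5 Foxa2 peaks after T09 and after GW4064, the Lss row was 0 throughout, and all PPAR columns were 0.

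The 43 Foxa2 peaks at these genes (13 after GW3965, 12 after T09, 12 after GW4064, 3 in Veh and 3 in GW4064-Veh) merged into 19 sites, counting peaks that share at least 1 base as 1 site. Of the 19, 3 were in all 5 lists, 5 were in all 3 ligand lists and neither vehicle list, 2 were in 2 lists and 9 in 1 list. Sites in no vehicle list numbered 16. Of all 29412 Foxa2 sites within 10 kb of a protein-coding gene, 7.27% were in all 5 lists, 9.31% in all 3 ligand lists and neither vehicle list, 64.2% in 1 list and 81.3% in no vehicle list. The 16 of 19 in no vehicle list are near that last share. Fdft1 had 6 sites, Hmgcs1 5, Cyp51 4, Fdps 2, and Idi1 and Sqle 1 each. The median gene body of the 7 was 17.9 kb, against 17.2 kb over all genes, and Fdft1 was the longest at 36.5 kb. The part of gene length in these counts was not tested.

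Hmgcs1, the cytosolic synthase that makes HMG-CoA at the entry to the mevalonate route, spans chr13:119690351-119708260 (plus strand) and had Foxa2 peaks only after ligand. One site inside the gene, at chr13:119698421-119698763 with centres 8241 to 8257 bp past the start, was in the GW3965 (entry 6188), T09 (entry 7137) and GW4064 (entry 8171) lists. A site over the end of the gene, at chr13:119707990-119708366, was in the GW3965 (entry 5610) and T09 (entry 6498) lists. The other 3 sites were in 1 list each, and all stood late in their lists. They were chr13:119716179-119716410 after GW3965 (entry 21142, 8034 bp beyond the gene), chr13:119709464-119709655 after T09 (entry 19363) and chr13:119706969-119707233 after GW4064 (entry 22660 of 22666). Neither vehicle list held a peak in this window. Nim1k also lies in part within it.

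Idi1, the isomerase that interconverts both isoprenoid building blocks, spans chr13:8885606-8892396 and had 1 Foxa2 peak, after T09 only. It lay at chr13:8876258-8876611 (entry 18829), a site that is within 10 kb of Wdr37 as well. The peak was 9172 bp before Idi1 and so just inside the 10 kb limit. Within 2 kb of that limit there were otherwise only the GW3965 peak 8034 bp from Hmgcs1, just inside it, and an LXR peak 10905 bp from Hmgcs1 in the WT T09 list, just outside it. In the other lists the nearest Foxa2 peak to Idi1 was 22.9 kb away after GW3965 and 121 kb away after GW4064, against 122 kb in Veh and 22972 bp in GW4064-Veh.

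Fdps, which condenses these blocks into farnesyl diphosphate, spans chr3:89093588-89101967 and had a Foxa2 site in all 5 lists. It lay beyond the higher-coordinate end, with centres 1640 to 1671 bp from the gene, at chr3:89103491-89103769 after GW3965 (entry 2000), chr3:89103487-89103728 after T09 (entry 2835) and chr3:89103507-89103731 after GW4064 (entry 1244), against chr3:89103520-89103731 in Veh (entry 262) and chr3:89103556-89103721 in GW4064-Veh (entry 2256). A second site further out was in the ligand lists only, at chr3:89108144-89108436 after GW3965 (entry 7260), chr3:89108131-89108412 after T09 (entry 5066) and chr3:89108335-89108342 after GW4064 (entry 11528, 8 bp wide). Rusc1 shares this window.

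Fdft1, squalene synthase and the first enzyme committed to sterols, spans chr14:63145150-63181687 and had the most Foxa2 peaks. It had 4 after GW3965, 5 after T09 and 5 after GW4064, against 2 in Veh and 2 in GW4064-Veh. A pair of sites inside the gene was in all 5 lists. The first, within chr14:63164156-63164510, was entry 917 after GW3965, 1233 after T09 and 1709 after GW4064, against 2343 in Veh and 4550 in GW4064-Veh. The second, within chr14:63180787-63181235 near the higher-coordinate end, was entry 3206 after GW3965, 2846 after T09 and 2673 after GW4064, against 1929 in Veh and 3346 in GW4064-Veh.

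Another pair of Fdft1 sites was in the 3 ligand lists and neither vehicle list. One lay within chr14:63160512-63161135 (entries 8519 after GW3965, 5563 after T09 and 6179 after GW4064). The other lay within chr14:63173990-63174766 (entries 10600 after GW3965, 3038 after T09 and 13073 after GW4064). The last 2 sites were in single lists, chr14:63150038-63150756 after T09 (entry 11822) and chr14:63166267-63166384 after GW4064 (entry 19081). Ctsb and Neil2 share parts of the window.

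Sqle, which oxidises squalene at a rate-limiting step, spans chr15:59315092-59331193 and had 1 Foxa2 site inside the gene, near its lower-coordinate end. It was at chr15:59317074-59317347 after GW3965 (entry 4053) and at chr15:59317108-59317302 after GW4064 (entry 7002). The T09 list had its nearest peak 20.4 kb away, against 69.0 kb in Veh and 147 kb in GW4064-Veh. The site was thus in the lists of 2 ligands and not in the longest list, that of T09.

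Lss, which folds oxidosqualene into lanosterol, spans chr10:76531565-76557139 and had no peak of any antibody in any of the 23 ChIP lists. Its nearest Foxa2 peak was 13.1 kb away after GW3965, 19.9 kb after T09 and 34.5 kb after GW4064, against 466 kb in Veh and 118 kb in GW4064-Veh. Of all genes, 44.1% had no peak in any Foxa2 list.

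Cyp51, the demethylase that acts on lanosterol, spans chr5:4080674-4104697 on the minus strand and had Foxa2 peaks after ligand only. The site in all 3 ligand lists lay within chr5:4080920-4081139, at the far end of the gene from its start, and stood late in each list (entries 14729 after GW3965, 19690 after T09 and 19009 after GW4064). GW3965 had 2 more sites, chr5:4089608-4089884 inside the gene (entry 7083) and chr5:4076339-4076588 beyond it (entry 12498). GW4064 had 1 more, chr5:4111286-4111415 (entry 16613), 6653 bp before the start. The printed promoter window held no Foxa2 peak. Akap9 is the neighbour in this window.

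**Figure D2:**
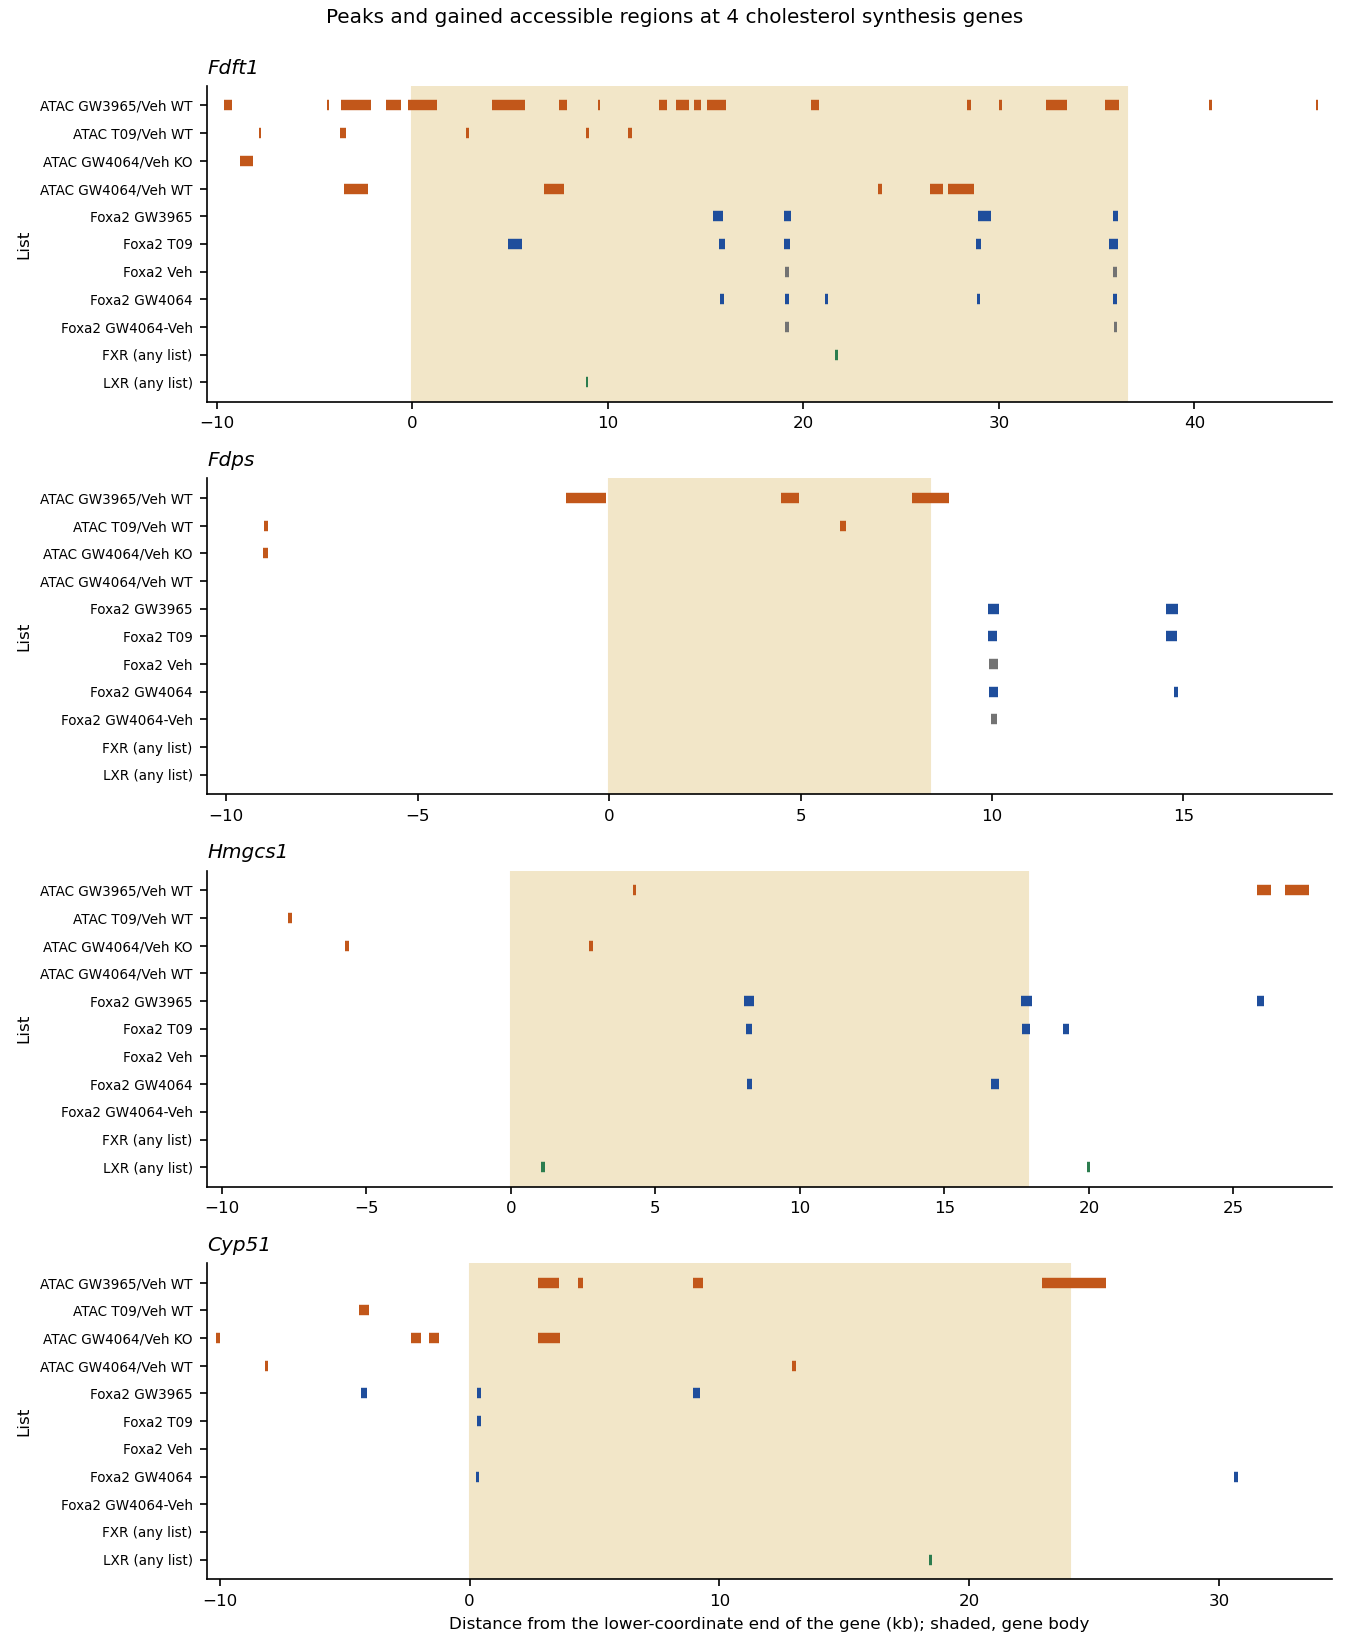
Positions of Foxa2 (blue, ligand; grey, vehicle), FXR and LXR (green) peaks and of regions of gained accessibility (orange) along Fdft1, Fdps, Hmgcs1 and Cyp51, in kb from the lower-coordinate end, with the gene body shaded. Marks narrower than 0.12 kb are drawn at that width. The Foxa2 sites shared with vehicle are at Fdft1 and Fdps only, and the GW3965 row of Fdft1 holds 19 accessible regions.

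Counting lists per gene, Fdft1 had a peak in 7 of the 23 ChIP lists, Hmgcs1 and Fdps in 5 each, Cyp51 in 4, Sqle in 3, Idi1 in 1 and Lss in 0. The median was 4 lists for the 7 genes (3 Foxa2 lists), 2.5 for the 18 other pathway genes (1 Foxa2 list) and 2 for all genes (1 Foxa2 list). Both Fdps and Fdft1 were in all 5 Foxa2 lists, as were 9.98% of all genes. Hmgcs1 and Cyp51 were in 3 Foxa2 lists (10.3% of all genes), Sqle in 2 (10.3%) and Idi1 in 1 (19.3%). Lists of 1 antibody share sites, so these numbers are not independent observations.

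FXR, the bile acid receptor, had 1 peak at these genes. In Foxa2-KO liver 0 of 7 genes had an FXR peak after GW4064, against 6.8% of all genes, and 0 of 7 with vehicle, against 7.84%. In WT liver 0 of 7 had one after GW4064 (22705 entries), against 30.5% of all genes, and 1 of 7 (Fdft1) with vehicle, against 13.5%. Taking the lists of a genotype together, the count was 0 of 7 in Foxa2-KO (13.0% of all genes) and 1 of 7 in WT (35.9%). For Foxa2-KO, 0 of 7 is near the background at such shares. Whether 1 of 7 in WT falls below its share was not tested. The Fdft1 peak was 146 bp wide, at chr14:63166766-63166911 (entry 4340 of 7883), and overlapped no Foxa2 peak. The largest q-value in the authors' deposited Foxa2-KO lists was 0.015, and the WT FXR lists carry no q, so a common threshold is not shown. The Foxa2-KO counts were 0 in lists of 3901 and 4284 entries, and a change with genotype was not tested.

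LXR, the oxysterol receptor, had 5 peaks at these genes. In Foxa2-KO liver, 1 of 7 genes (Hmgcs1) had an LXR peak after GW, against 16.3% of all genes, 1 of 7 (Sqle) after T09, against 7.85%, and 0 of 7 with vehicle, against 0.489%. In WT liver, 0 of 7 had one after GW, against 25.5%, 2 of 7 (Hmgcs1 and Fdft1) after T09, against 14.6%, and 1 of 7 (Cyp51) with vehicle, against 9.38%. Over the 3 lists of a genotype the count was 2 of 7 in Foxa2-KO (21.5% of all genes) and 3 of 7 in WT (36.3%). These shares are near those of all genes.

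In Foxa2-KO liver the LXR peaks were at chr13:119691412-119691515 in Hmgcs1 after GW (104 bp, q = 0.0432, 1112 bp past the start) and at chr15:59311523-59311556 beside Sqle after T09 (34 bp, q = 0.0429). In WT liver they were at chr13:119710271-119710328 beyond Hmgcs1 after T09 (58 bp, q = 0.0338), at chr14:63154031-63154050 in Fdft1 after T09 (20 bp, q = 0.0287) and at chr5:4099079-4099172 in Cyp51 with vehicle (94 bp, q = 0.0315). The q-values are those of the authors' deposited table, in which the largest LXR q was 0.05. No LXR position recurred in a second list, and of all 19118 LXR sites within 10 kb of a gene 97.6% were in 1 list only. None of these LXR peaks overlapped a Foxa2 peak. The Fdft1 peak overlapped a region gained with T09 in WT, chr14:63154036-63154040 (5 bp, fold 4.55), and the others overlapped no gained region.

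PPAR had no peak at any of the 7 genes in any list. In Foxa2-KO liver the count was 0 of 7 after GW3965 (4.56% of all genes had a peak), T09 (3.64%) and GW4064 (4.54%) and with vehicle (6.73%). In WT liver it was 0 of 7 after GW3965 (0.274%), T09 (0.722%) and GW4064 (4.23%) and with vehicle (4.12%). Over the 4 lists of a genotype, 14.1% of all genes had a PPAR peak in Foxa2-KO and 8.0% in WT. At shares this low, 0 of 7 is near the background. The nearest PPAR peak to any of the 7 was 54.5 kb from Hmgcs1, in WT liver with vehicle.

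**Figure D3:**
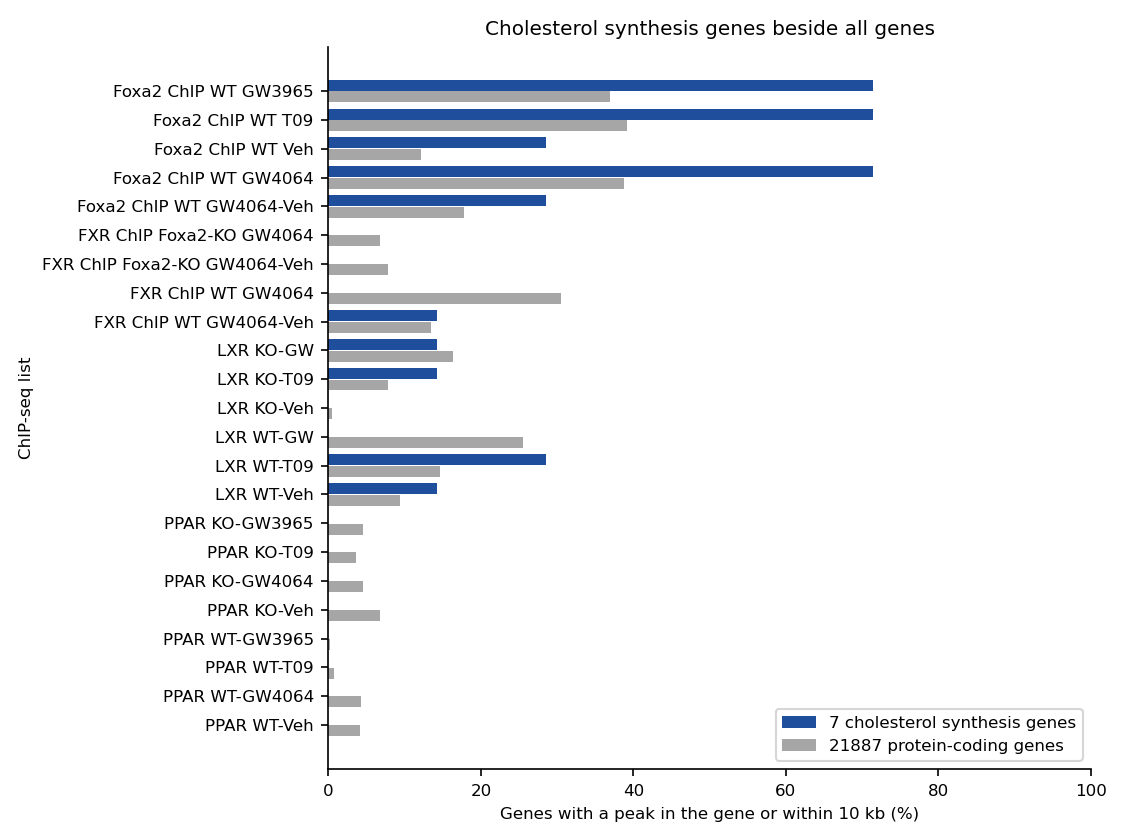
Percent of genes with a peak in the gene or within 10 kb (x axis) in each ChIP list (y axis), for the 7 cholesterol synthesis genes (blue) above all 21887 protein-coding genes (grey). Each bar is 1 deposited list with no replicate error. In percentage points, the blue bars exceed the grey ones most in the Foxa2 lists after ligand, at 5 of 7 genes against 36.9% to 39.2%. The vehicle Foxa2 lists, which are several times shorter, had 2 of 7 against 12.1% (Veh) and 17.8% (GW4064-Veh).

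Other genes of the pathway, 18 in all with 13 enzymes, had a median of 1 Foxa2 list with a peak, as had all genes. After GW3965, 10 of 18 had a Foxa2 peak (36.9% of all genes) and after T09 8 of 18 (39.2%), against 4 of 18 in Veh (12.1%). After GW4064, 7 of 18 had one (38.8% of all genes), against 5 of 18 in GW4064-Veh (17.8%). The counts of 18 after T09 and GW4064 are near the share of all genes. Of the 13 enzymes alone, 6 had a Foxa2 peak after GW3965, 3 after T09 and 4 after GW4064. With vehicle it was 2 of 13 in Veh and 3 of 13 in GW4064-Veh. Over the 3 ligand lists together it was 6 of 13, against 54.6% of all genes. Whether the enzyme counts differ from the shares of all genes was not tested. FXR peaks were at 0 of 18 in either Foxa2-KO list, against 6.8% of all genes after GW4064 and 7.84% with vehicle. They were at 2 of 18 (Srebf2 and Scap) in each WT list, against 30.5% of all genes after GW4064 and 13.5% with vehicle. LXR peaks in Foxa2-KO liver were at 3 of 18 after GW (Tm7sf2, Hsd17b7 and Srebf2), against 16.3% of all genes. They were at 0 of 18 after T09 (7.85% of all genes) and with vehicle (0.489%). In WT liver LXR peaks were at 5 of 18 after GW (Acat2, Hsd17b7, Ebp, Srebf2 and Insig1), against 25.5% of all genes. They were at 2 of 18 after T09 (Srebf2 and Scap), against 14.6%, and 1 of 18 with vehicle (Insig1), against 9.38%. These LXR counts are near the shares of all genes. PPAR peaks in Foxa2-KO liver were at Scap after T09 (3.64% of all genes) and Stard4 with vehicle (6.73%). They were at 0 of 18 in every WT list, against 8.0% of all genes over these lists together.

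Among regulators of the pathway, Scap and Srebf2 had peaks in 9 ChIP lists each, more than any of the 7 enzymes. The median over all genes was 2 lists, and the share of all genes with 9 is not given here. The part of gene length in this ranking was not tested. Srebf2, which encodes SREBP-2, had a Foxa2 peak at chr15:82206628-82207111 after GW3965 (entry 3359) and, at another place, chr15:82184498-82185016 after T09 (entry 4185), against none in Veh. It had one at chr15:82206847-82207073 after GW4064 (entry 1822), against chr15:82206783-82207079 in GW4064-Veh (entry 1333). Where a pathway gene had several peaks in a list, the earliest entry is given. Whether the T09 list also held a later peak at the Srebf2 site of the other lists was therefore not examined. Scap had Foxa2 peaks in all 5 lists, the earliest entry of them at chr9:110357382-110357680 after T09 (entry 2215). Insig2, 1 of the proteins that hold SCAP back, had a Foxa2 peak in 4 lists, at chr1:121329420-121330037 after GW3965 (entry 653) and in Veh at chr1:121329474-121329740 (entry 973). Insig1 had 1, after T09 (entry 22493).

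Among the enzymes, Acat2, which joins acetyl-CoA units ahead of Hmgcs1, had Foxa2 peaks in all 5 lists. They lay at chr17:12937405-12938109 after GW3965 (entry 1193) and chr17:12937700-12938091 after GW4064 (entry 1374), against chr17:12937718-12937894 in Veh (entry 2978) and chr17:12937684-12937904 in GW4064-Veh (entry 517). Acat2, like Fdps and Fdft1, thus had a site with ligand and with vehicle.

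Accessibility gained over vehicle was spread unevenly over the 7 genes and was widest with GW3965. In the Foxa2-KO GW4064 comparison, 3 of 7 gene bodies touched a gained region (Hmgcs1, Lss and Cyp51), against 48.0% of all genes. In WT, 5 of 7 did so with GW3965 (Hmgcs1, Fdps, Fdft1, Lss and Cyp51), against 43.6%, 3 of 7 with T09 (Fdps, Fdft1 and Lss), against 43.2%, and 3 of 7 with GW4064 (Fdft1, Sqle and Cyp51), against 43.8%. The mean share of the gene body inside gained regions was 7.12% for the 7 genes with GW3965, against 2.41% over all genes. With T09 it was 0.564%, against 1.75% over all genes. With GW4064 in Foxa2-KO it was 0.844%, against 1.95% over all genes, and with GW4064 in WT it was 1.41%, against 2.19% over all genes. With GW3965 the median of the 7 was 4.62% and that of all genes 0%, and without Fdft1 the mean of the other 6 was 4.45%. With GW4064 in WT it was 0.164% without Fdft1. In the comparisons other than GW3965, then, the mean of the 7 genes was below that of all genes. The WT GW4064 list (60528 entries) carries no q or fold, while the Foxa2-KO list (82561 entries) has a largest q of 0.05. A common threshold is thus not shown for GW4064, here or at the single genes below, and a change with genotype was not tested.

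Fdft1 led with GW3965, with 23.2% of its body (8463 bp) in gained regions, a coverage that 2.48% of all genes reached. It was 0% with GW4064 in Foxa2-KO, against 8.9% with GW4064 in WT, and 0.993% with T09 in WT. With GW3965 there were 19 regions in the window, 13 of them touching the body, with authors' folds of 1.22 to 4.18. The earliest in the list was chr14:63149239-63150920 (1682 bp, fold 1.97, entry 241 of 62838), in which the T09 Foxa2 peak at chr14:63150038-63150756 lies. The Foxa2 site at chr14:63160512-63161135 of the 3 ligand lists overlapped the region chr14:63160215-63161210 (fold 1.72). The site near the higher-coordinate end, which was in all 5 Foxa2 lists, overlapped chr14:63180568-63181299 (fold 1.48). Below the gene, chr14:63141477-63143034 (GW3965, fold 1.88, entry 542), chr14:63141445-63141765 (T09, fold 1.94) and chr14:63141654-63142898 (GW4064 in WT) overlapped, so this stretch was in the lists of all 3 ligands in WT. The single Foxa2-KO region in the window was elsewhere, at chr14:63136323-63136996 (fold 1.72).

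Fdps had 11.2% of its body (939 bp) in GW3965-gained regions, which 5.18% of all genes reached. It had 1.85% with T09, and 0% with GW4064 in Foxa2-KO and in WT. The regions with GW3965 were chr3:89098081-89098542 (fold 1.63), chr3:89101491-89102457 over the higher-coordinate end (fold 1.25) and chr3:89092470-89093503 just below the gene (fold 1.57). None overlapped the Foxa2 sites of Fdps.

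Cyp51 had 10.6% of its body (2553 bp) covered with GW3965, which 5.45% of all genes reached. It had 3.83% with GW4064 in Foxa2-KO, 0.737% with GW4064 in WT and 0% with T09. The widest region, chr5:4103583-4106163 (2581 bp), covered the whole promoter window printed above, at a fold of 1.17, and none of the other 3 promoter windows was touched by a gained region in any list. Inside the gene, chr5:4083396-4084314 with GW4064 in Foxa2-KO (fold 1.47) and chr5:4083403-4084244 with GW3965 in WT (fold 1.68) nearly coincided. Foxa2 peaks after GW3965 overlapped chr5:4089612-4090011 (GW3965, fold 1.84) and chr5:4076255-4076644 (T09, fold 1.76).

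Lss, the gene with no ChIP peak, had 4.62% of its body (1182 bp) covered with GW3965, 1.11% with T09, 1.65% with GW4064 in Foxa2-KO and 0% with GW4064 in WT. Most of the GW3965 share was 1 region of 1021 bp at chr10:76550317-76551337 (fold 1.78). Hmgcs1 had 0.43% with GW4064 in Foxa2-KO and 0.235% with GW3965 in WT. Beyond the gene, the region chr13:119716152-119716652 (GW3965, fold 1.52) overlapped the late GW3965 Foxa2 peak named above. Sqle had 0.248% with GW4064 in WT and 0% otherwise, and Idi1 0% in all 4 comparisons, with a single GW3965 region of 89 bp some distance before the gene.

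Of the 19 Foxa2 sites, 5 overlapped a region gained with GW3965, 3 at Fdft1 and 1 each at Hmgcs1 and Cyp51, against 15.4% of the 29412 Foxa2 sites near any gene. None of the 49 ChIP peaks at the 7 genes lay in the 102 regions where lists of all 4 antibodies overlap, and 1.23% of all ChIP peaks near a gene did.

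**Figure D4:**
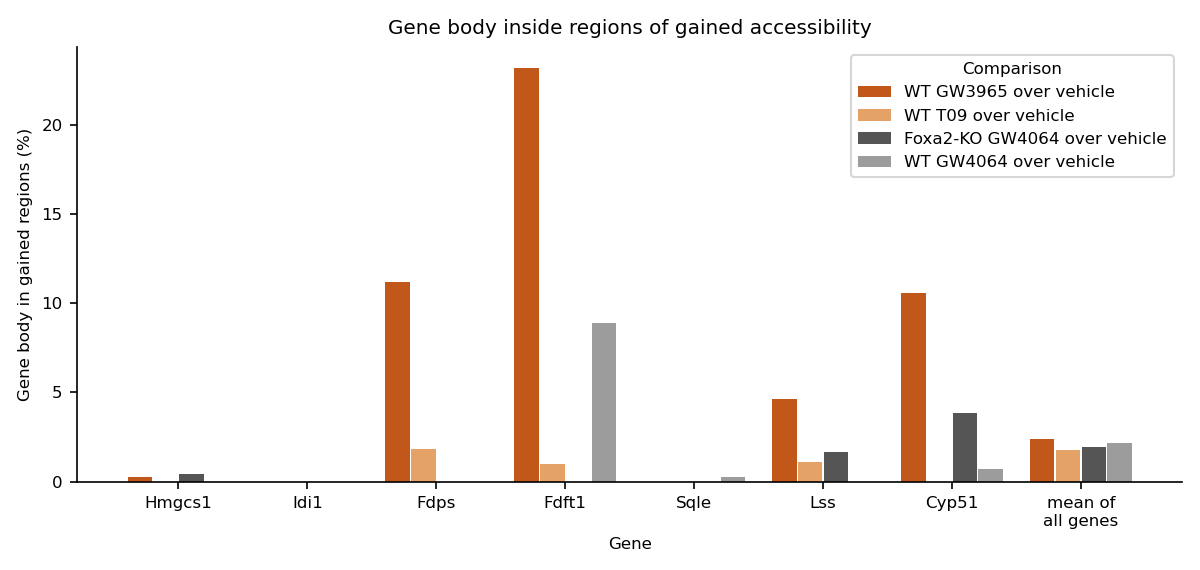
Percent of the gene body inside regions of gained accessibility (y axis) for each of the 7 genes and for the mean of all genes, in the 4 comparisons of ligand over vehicle (colours, 1 deposited list each, no replicates). Fdft1 (23.2%), Fdps (11.2%), Cyp51 (10.6%) and Lss (4.62%) stand above the mean of all genes (2.41%) with GW3965, and Hmgcs1, Idi1 and Sqle stay below 1% throughout.

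Over the 18 other pathway genes the mean share was 4.11% with GW4064 in Foxa2-KO, against 5.3% with GW4064 in WT, and it was 9.96% with GW3965 and 0.497% with T09 in WT. Over all genes the means were 1.95%, 2.19%, 2.41% and 1.75% in the same comparisons. The pathway medians were 0.0165% with GW4064 in Foxa2-KO, against 0.453% with GW4064 in WT, and 2.71% with GW3965 and 0% with T09 in WT. Without Insig2 the mean was 1.66% with GW4064 in Foxa2-KO, against 3.19% with GW4064 in WT, and without Insig1 it was 6.46% with GW3965. Insig1 had 69.4% of its body in GW3965-gained regions and 0% in the other 3 comparisons. Insig2 had 45.7% with GW4064 in Foxa2-KO, and in WT 41.2% with GW4064, 11.6% with GW3965 and 0% with T09.

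The patterns of the 7 genes over the 27 lists differed among themselves. The correlation of each gene with the mean of the 7 (which contains it) was 0.86 for Fdps, 0.82 for Fdft1, 0.81 for Cyp51, 0.8 for Hmgcs1, 0.61 for Sqle, 0.5 for Idi1 and -0.12 for Lss. The genes most like that mean were 121 genes outside the pathway that share r = 0.91, of which 1700012B07Rik, 4930513O06Rik and A930009A15Rik come first in the alphabet. Each of these 3 had a Foxa2 peak in the 3 ligand lists and in no other ChIP list. The 27 points share list lengths and a few antibodies, and r is given as a description.

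As a check of the tissue, Foxa2 peaks were counted at markers of liver cells. Of 6 hepatocyte markers, 6 had a Foxa2 peak after GW3965, T09 and GW4064, against 5 in Veh and 4 in GW4064-Veh. Of 4 Kupffer cell markers, 1 had one after GW4064 and 0 in the other lists, and of 4 stellate cell markers, 1 had one after T09 and after GW4064 and 0 in the others. Of 4 markers of sinusoidal endothelium, 3 had one after each ligand, against 2 in each vehicle list, and of 4 cholangiocyte markers, 1 had one after GW3965, T09 and in GW4064-Veh and 0 in the others. Of all genes, 36.9% had a Foxa2 peak after GW3965, 39.2% after T09 and 38.8% after GW4064, against 12.1% in Veh and 17.8% in GW4064-Veh. The endothelial markers, like those of hepatocytes, were above these shares, so the check is not particular to hepatocytes. A peak near a marker does not measure its expression, and the part of other cells in the peaks at the 7 genes was not tested.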

How the data were processed

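Positions were read as the authors deposited them, in mm10, and are given 1-based. Peaks were called by PeakSeq against input (ChIP-seq) or against vehicle (ATAC-seq), per the labels' protocols, and the submitters' processing notes name BWA, STAR, RSEM, edgeR and mm10, with versions not given in the sources used here. The q-value of each peak was deposited in 19 of 27 lists, each ordered by q, and the other 8 (all Foxa2 lists among them) hold no q and were ranked by entry order. The largest q was 0.015 in Foxa2-KO FXR, 0.05 in LXR and in the ATAC lists that carry q, and about 0.07 in PPAR lists. The fold, a ratio over control, and the −log10 of p were deposited by the authors, and that −log10 value was not used. Blank lines in the Foxa2-KO FXR lists (7254 with GW4064 and 28147 with vehicle) were left out. No list holds read counts, so depth and counting intervals are unknown. Names of the LXR lists state a looser FDR for Foxa2-KO than for WT.

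A gene was called when a peak centre lay in its body (RefSeq, GRCm38.p6) or within 10 kb. Regions of a list were merged before coverage was summed, and 1 shared base counted as overlap. Code was tested on simulated lists. The members and gene lists were chosen with earlier results of these data known. Every member was named with all its peaks. The 6 other pathway genes with most ChIP lists (ties by summed ATAC percent) were named too, except 1 that is not reported here, as were the 3 genes most correlated with the members' mean (ties in alphabetical order). Alternatives were 0, 5 and 50 kb, any base of the peak, the first 500 entries, removal of regions with all 4 antibodies, the first 50% of the ATAC entries, the flanks and the median. Sequence under peaks was not analysed here. Analyses used python 3.11.15, numpy 2.4.6, pandas 2.3.3 and matplotlib 3.10.9.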

Additional observations from a re-analysis of the deposited data

How the results depend on the processing

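Of the alternative values, 47 stayed within 1.5 times the reported one and 18 moved further. Some of the 47 could not have moved. A reported count of 0 (FXR in Foxa2-KO, PPAR in both genotypes) cannot fall with a narrower window or a shorter list. Removing regions with all 4 antibodies could change no count, because no member peak lay in them. With the first 500 entries of each list, members with a peak fell to 0 for Foxa2 with ligand, against 1 for Foxa2 with vehicle, and to 0 for LXR in Foxa2-KO and WT and for FXR in WT. With each Foxa2 ligand list at the length of its vehicle list, an alternative chosen after seeing the data, the ligand count was 3 in place of 6. With the gene body only, it was 4 for Foxa2 with ligand in place of 6, 2 for LXR in WT in place of 3, 1 for Foxa2 with vehicle and 1 for LXR in Foxa2-KO, in place of 2 each. At 50 kb it was 4 for FXR in WT, in place of 1. Shares of all genes with these other windows, with the first 500 entries and over the cut ligand lists together are not given here. A wider window or a longer list cannot take in fewer of all genes. These alternative counts therefore stand without a background. For gene body coverage, the median over members was 4.62% with GW3965 in WT and 0% with T09 in WT and with GW4064 in Foxa2-KO and WT, in place of means of 7.12%, 0.564%, 0.844% and 1.41%. Without its leading gene the mean was 4.45% with GW3965 (Fdft1), 0.35% with T09 (Fdps), 0.347% with GW4064 in Foxa2-KO (Cyp51) and 0.164% with GW4064 in WT (Fdft1), a setting added after seeing the data. The first 50% of the T09 entries gave 0.214%. The cause was not tested in any of these cases beyond the shorter lists or windows themselves. No paired analysis was possible because each group is 1 list with no values per replicate, and for that reason no replicate could be left out. Read depth, which limits how many peaks a list can hold, is unknown here.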
